A study of Mus musculus with 24 samples.

Results

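The mature miRNAs of 2 mouse hairpins, miR-150 and miR-342, were followed in irradiated and control lungs. They are mmu-miR-150-5p, mmu-miR-150-3p, mmu-miR-342-3p and mmu-miR-342-5p, written below without the prefix for mouse and taken by name from tables of 1657 mature miRNAs at day 14, 1707 at day 90 and 1767 at day 180. All 4 were listed in each table, and all 4 passed the filter on low counts at every day. Small RNA of 18 to 30 nucleotides was sequenced from lungs of C57BL/6 mice. The irradiated groups (Radiation) had received 15 Gy of X-rays to the whole thoracic cavity, and their lungs were taken at day 14, day 90 or day 180. The control groups (Control) are labelled with the same 3 days, and the sources used here do not say whether these mice were placed in the irradiator without a dose. The mice were 6 to 8 weeks old when assigned to groups, and the labels give no genetic change. Each of the 6 groups had 4 libraries, which makes 24. Nothing in the labels ties a library to an animal of its own, so p-values measure the spread between libraries, which may be technical.

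A miRNA hairpin is cut by Drosha and then Dicer into a duplex, of which usually one arm is kept by Argonaute and the other is degraded. The kept arm pairs with target mRNAs mainly through its seed, bases 2 to 8. miR-150-5p is the kept arm of its hairpin and is abundant in mature B and T cells, where it represses the transcription factor Myb. miR-342 lies in an intron of Evl, a gene of actin filament assembly, and miR-342-3p is likewise rich in lymphocytes. miR-342-5p was described in mouse macrophages, where it represses Akt1. Lymphocytes are among the most radiosensitive cells of the body, which is the ground for reading these miRNAs in irradiated lung. In whole lung, fewer cells of a type and less of a miRNA per cell cannot be told apart.

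The sequences show how the arms differ, since each carries a seed of its own. The RefSeq table for GRCm38.p6 matched 3 of the 4 members, printed 5′ to 3′ with the seed in capitals. miR-150-5p is named only.
miR-150-3p: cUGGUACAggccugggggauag
miR-342-3p: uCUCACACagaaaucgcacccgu
miR-342-5p: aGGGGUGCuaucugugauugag
These are 22 bases at chr7:45121798-45121819, 23 bases at chr12:108658680-108658702 and 22 bases at chr12:108658638-108658659, all on the plus strand. None of the 3 seeds is shared by another of the 1738 mature sequences in that table. The miR-342 hairpin of 99 bases, chr12:108658620-108658718 on the plus strand, is shown with both arms in capitals, the 5p arm at bases 19 to 40 and the 3p arm at bases 61 to 83.
Mir342 hairpin: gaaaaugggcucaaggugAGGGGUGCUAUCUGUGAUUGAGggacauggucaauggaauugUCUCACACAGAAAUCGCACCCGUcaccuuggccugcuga
In the GENCODE annotation of GRCm38, Mir342 lies in an intron of Evl (chr12:108554720-108688516) on the same strand. Mir150 (chr7:45121757-45121821, plus strand) overlaps no other annotated gene, and the nearest is Gm45552 on the same strand at 96 bases.

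Levels are given as CPM, each count scaled to a common library total after TMM normalisation within a day. The miRNA counts of a library added up to between 2899300 and 3301198 at day 14. They lay between 3464742 and 3638984 at day 90, and between 2832205 and 3695133 at day 180. The most abundant miRNA, miR-126a-3p, nevertheless kept to 111657 to 119208 counts at day 90 and 111905 to 113233 at day 180. At day 14, with lower totals than at day 90, it ran more widely, from 113216 to 136157 counts. Whether a ceiling acts on the counts of abundant miRNAs was not tested. Under a ceiling, differences and ratios of miR-150-5p (36696 to 86595 counts at day 90) would be understated. One library stood apart: irradiated library 1 of day 180 had the lowest total, and its median Spearman correlation with the other libraries of its day was 0.914, against 0.940 to 0.962 for the other 7. The members' day 180 results are therefore also given without it. Endothelial and epithelial marker lists were summed per library, which does not by itself identify lung. The ranges pool the 3 days, each scaled on its own. The endothelial miR-126a arms summed to 35794 to 57787 CPM in irradiated libraries and 37596 to 54178 CPM in control libraries. The 5 epithelial miRNAs summed to 30447 to 68709 CPM in irradiated libraries and 34572 to 44415 CPM in control libraries. Irradiated library 1 of day 180 gave the highest irradiated sum of both lists. Over day 14 and day 90 the highest irradiated sums were 52682 CPM (endothelial, day 14) and 48672 CPM (epithelial, day 90).

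Each hairpin had one abundant and one scarce arm. Ranked by mean CPM, miR-150-5p stood at place 24, 23 and 22 of the table at day 14, 90 and 180, and miR-150-3p at place 385, 404 and 379. miR-342-3p stood at 92, 97 and 92, and miR-342-5p at 254, 242 and 226. On 1 scaling of all 24 libraries, the lowest of the 6 group means was that of irradiated lungs at day 90 for 3 of the 4 members: 12860 ± 2362 CPM for miR-150-5p, 6.72 ± 1.57 CPM for miR-150-3p and 896 ± 100.0 CPM for miR-342-3p (SD, n = 4 libraries each). The highest mean of the same members was in controls, at day 90 for miR-150-5p (19784 ± 3847 CPM) and at day 14 for miR-150-3p (13.2 ± 4.41 CPM) and miR-342-3p (1400 ± 90.5 CPM). miR-342-5p differed: it was highest in irradiated lungs at day 180 (141 ± 98.6 CPM, or 92.4 ± 25.8 CPM over 3 libraries without library 1) and lowest in controls at day 180 (53.8 ± 13.5 CPM). In the order of the 6 means, the ranges of neighbouring groups overlapped for every member.

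**Figure D1:**
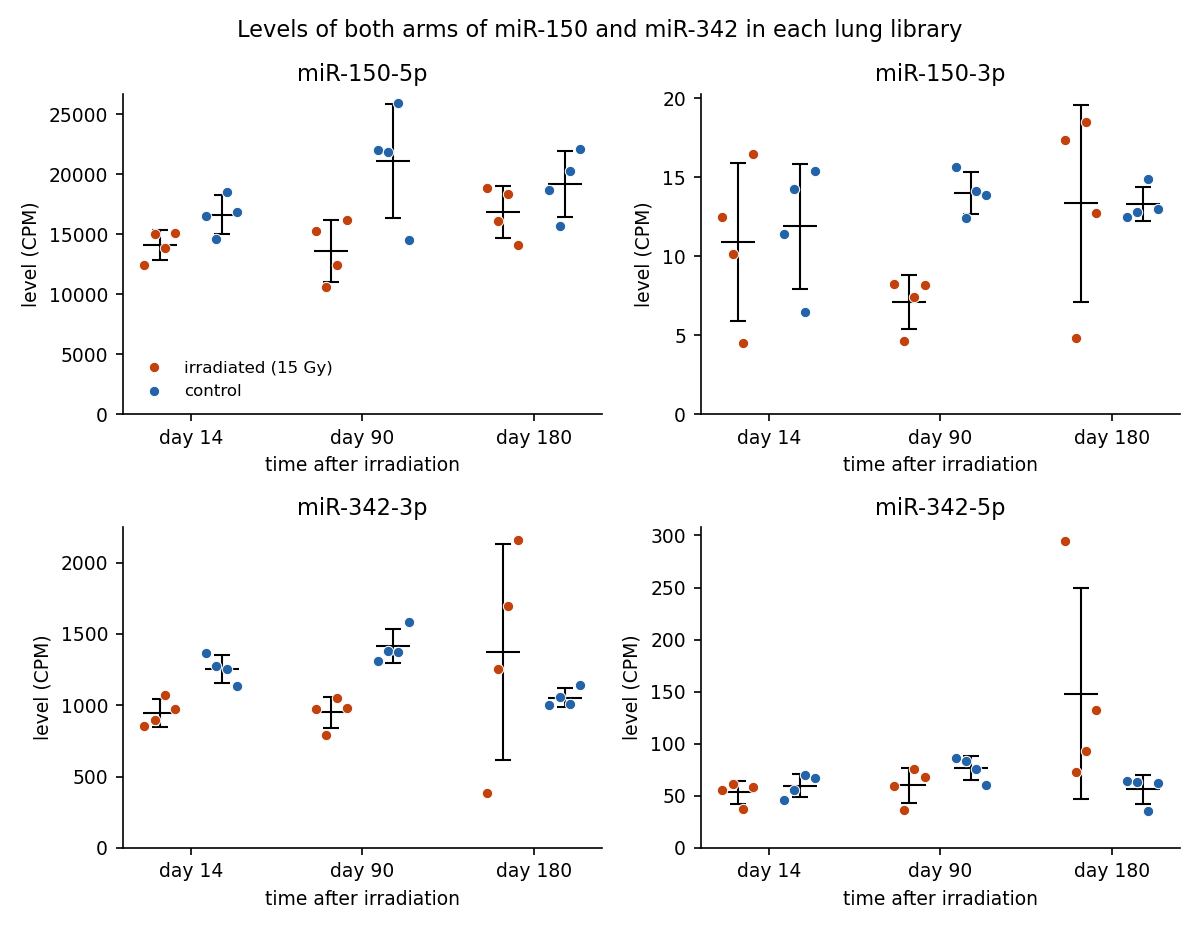
Level of each member in CPM (linear axes from 0) in every library, by day, with irradiated libraries left of control libraries; the horizontal bar is the group mean and the vertical bar is ± SD (n = 4). miR-150-5p lies at 10589 to 25966 CPM and miR-150-3p at 4.54 to 18.5 CPM, and irradiated library 1 of day 180 is the lowest point of miR-342-3p and the highest of miR-342-5p.

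At day 14 the abundant arms of both hairpins were lower on average in irradiated lungs and the scarce arms lay closer to their controls, but no member passed the test across all miRNAs. miR-342-3p measured 851, 895, 1073 and 970 CPM in the irradiated libraries, against 1369, 1273, 1252 and 1132 CPM in the controls. All 4 irradiated libraries lay below every control. Its means were 947 ± 96.8 CPM and 1256 ± 97.4 CPM (SD, n = 4 each), a log2 fold change of -0.41 ± 0.12 (SE) with an adjusted p of 0.804 by edgeR's quasi-likelihood test. An exact two-sided permutation test of this miRNA alone gave p = 0.0286, the smallest that 4 against 4 libraries allow. Any full separation of the groups gives this value. Same-numbered libraries deviated together at this day, though library 2 only weakly (r = 0.172). Within the 4 pairs by number, all with the irradiated library lower, the exact p was 0.125, the smallest that 4 pairs allow. miR-150-5p measured 12434, 15026, 13882 and 15104 CPM in the irradiated libraries, against 16516, 14593, 18530 and 16883 CPM in the controls. Control library 2 lay among the irradiated values, so the groups overlapped. The log2 fold change was -0.24 ± 0.10 (edgeR adjusted p = 0.883), and the exact permutation p was 0.0857.

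The scarce arms at day 14 varied more between libraries than between groups. miR-150-3p, the arm that Argonaute mostly does not keep, measured 12.5, 10.1, 4.54 and 16.5 CPM in the irradiated libraries and 11.4, 14.2, 6.48 and 15.4 CPM in the controls. Library 3 was lowest in both groups, with 14 counts in the irradiated library and 19 in the control. miR-342-5p ranged from 37.6 to 61.2 CPM in irradiated lungs and from 45.7 to 69.6 CPM in controls. Their log2 fold changes were -0.12 ± 0.40 and -0.16 ± 0.22, with edgeR adjusted p of 0.978 and 0.940. No miRNA of the 499 tested at day 14 was called at an adjusted p of 0.05 (0%), and 27 (5.41%) had an unadjusted p under 0.05, 3.61% lower and 1.8% higher in irradiated lungs. miR-150-5p and miR-342-3p were among the lower ones. DESeq2 called 1 of 494 (0.202%), which was not a member. Of the miRNAs tested, 1.6% had every irradiated library below every control, as miR-342-3p did, and 48.1% had a log2 fold change below 0, as all 4 members did.

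At day 90 all 4 members were again below their controls on average, by more than at day 14, though the difference between these days was not called (given below). The fit across all miRNAs called none of the 4 and 2 of 558 miRNAs in all (0.358%). miR-150-5p measured 15282, 10589, 12409 and 16224 CPM in the irradiated libraries, against 22020, 21851, 25966 and 14561 CPM in the controls. Control library 4 lay within the irradiated range, and the other 3 controls lay above all irradiated libraries (exact permutation p = 0.0857). The means were 13626 ± 2595 CPM and 21100 ± 4756 CPM (SD, n = 4 each), and the fold of 0.646 had a log2 value of -0.63 ± 0.18 with an edgeR adjusted p of 0.193. Without control library 4 it was -0.80 with an adjusted p of 0.0317, in a fit that called 7 of 573 (1.22%). With no filter on low counts it was -0.64 with an adjusted p of 0.00964, in a fit that called 18 of 1707 (1.05%). Over all alternatives its adjusted p ran from 0.00964 to 0.432.

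The scarce arm of the same hairpin had the lowest fold of the 4 members at day 90. miR-150-3p measured 8.25, 4.62, 7.43 and 8.19 CPM in the irradiated libraries, against 15.6, 12.4, 14.1 and 13.9 CPM in the controls. Every irradiated library was below every control, on 16 to 32 counts in irradiated and 42 to 54 counts in control libraries. Its log2 fold change of -0.97 ± 0.24, a fold of 0.511, had an edgeR adjusted p of 0.119. DESeq2 gave an adjusted p of 0.0164, and the alternatives ran from 0.0164 to 0.466. So few counts limit what this arm can show.

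The abundant arm of miR-342 separated the day 90 groups without overlap, and its 5p arm did not. miR-342-3p measured 973, 792, 1051 and 980 CPM in the irradiated libraries, against 1311, 1378, 1375 and 1584 CPM in the controls. The highest irradiated library lay below the lowest control. Means of 949 ± 110 CPM and 1412 ± 119 CPM (SD, n = 4 each) gave a log2 fold change of -0.57 ± 0.15, a fold of 0.672, with an edgeR adjusted p of 0.129. DESeq2 gave 0.00739, and the alternatives ran from 0.00739 to 0.627. miR-342-5p measured 59.7, 36.6, 75.5 and 67.6 CPM in irradiated lungs and 85.9, 83.6, 75.3 and 60.3 CPM in controls. Its groups overlapped, and the log2 fold change was -0.35 ± 0.24 (edgeR adjusted p = 0.681). DESeq2 called 19 of 557 miRNAs at day 90 (3.41%), miR-150-3p and miR-342-3p among them. Of the 558 miRNAs, 13 (2.33%) had all irradiated libraries below all controls, again including these 2 members, and 4.84% had all irradiated libraries above. An unadjusted p under 0.05 was found for 71 miRNAs (12.7%), 4.48% lower and 8.24% higher, and 3 of the 4 members were among the lower ones. The members' median log2 fold change was -0.60, against -0.02 over all miRNAs tested, of which 52% were below 0.

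Some marker miRNAs of other tissues and cells also differed in mean level at day 90. The 5 striated muscle miRNAs were all above 0, and their sum was 934 to 3870 CPM in irradiated libraries and 356 to 1272 CPM in control libraries, with 1 of the 5 at 0 in some library. The liver miRNA miR-122-5p was 611 to 1004 CPM in irradiated libraries and 154 to 446 CPM in control libraries. The 3 ciliated cell miRNAs were also all above 0 (13383 to 15183 CPM in irradiated and 9590 to 14800 CPM in control libraries). All 5 epithelial miRNAs were above 0 as well, with miR-141-3p at a log2 fold change of 0.71 ± 0.20, and the erythroid list had 2 of 5 above 0, with miR-144-3p at 1.49 ± 0.40. Every irradiated library lay above every control for both of these miRNAs, as for 4.84% of all miRNAs tested. In the erythroid list, miR-486a-5p and miR-486b-5p had identical counts in every library of day 90 (log2 fold change -0.06 ± 0.31). They are therefore 1 measurement counted as 2 miRNAs, in that list and among the 34 marker list miRNAs. Other lists leaned less or the other way. The 2 smooth muscle miRNAs were below 0, and 1 of the 2 endothelial miRNAs was above 0. The fibroblast list had 2 of 3 above 0, with miR-199a-3p at -0.42 ± 0.15. Over all miRNAs, edgeR called 0.358% and DESeq2 3.41% at day 90. Of the 34 marker list miRNAs tested, edgeR called none and DESeq2 called 5, all higher in irradiated lungs. These were miR-122-5p (adjusted p = 0.000136), the muscle miRNAs miR-499-5p (0.00728) and miR-133a-3p (0.0115), the ciliated miR-34b-5p (0.0159) and miR-144-3p (0.0159). Their part in the members' difference was not tested.

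**Figure D2:**
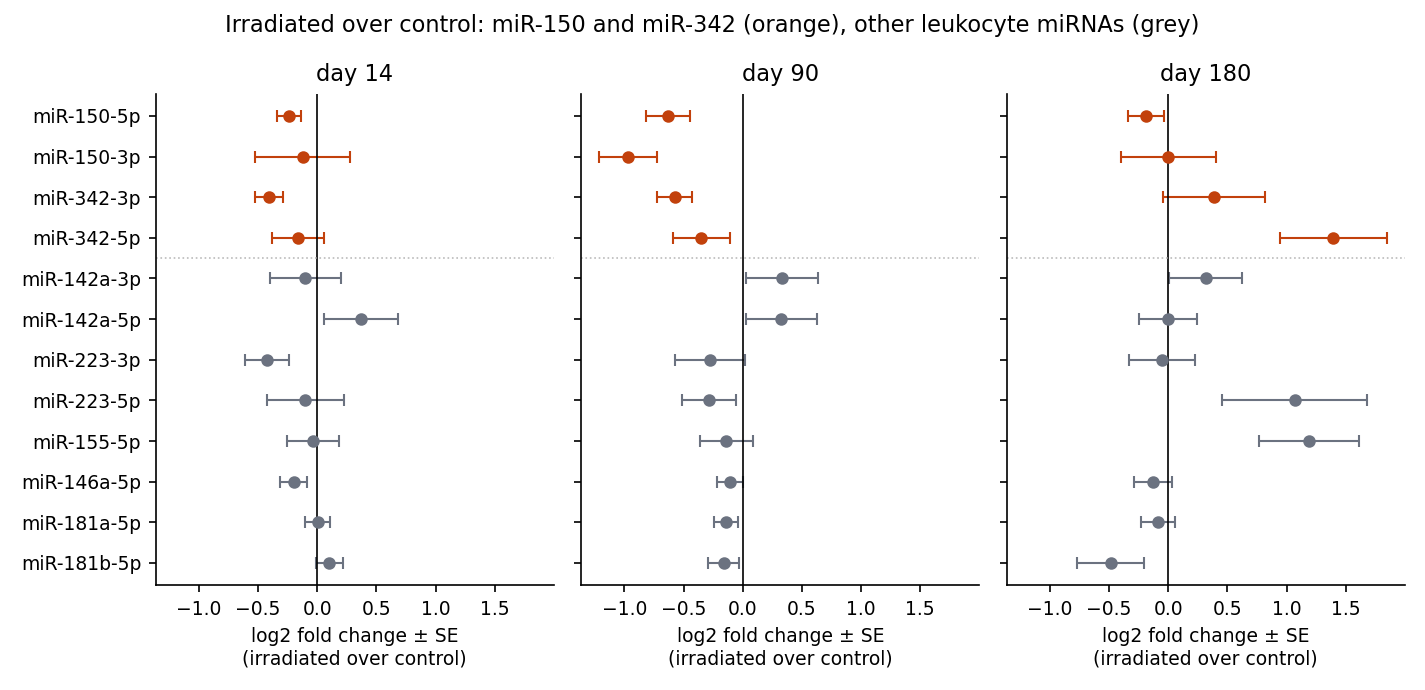
Log2 fold change (irradiated over control, edgeR) ± SE by day for the 4 members (orange, top) and the other leukocyte miRNAs (grey, below); the vertical line marks no difference. At day 90 the 4 members lie between -0.97 and -0.35, and at day 180 miR-342-5p lies at 1.40 while miR-150-5p lies at -0.19.

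At day 180 no member was called. Both miR-150 arms overlapped their controls, and miR-342-5p had a higher mean in irradiated lungs. miR-150-5p measured 18820, 16073, 18374 and 14148 CPM in the irradiated libraries, against 18735, 15662, 20263 and 22146 CPM in the controls. The log2 fold change was -0.19 ± 0.15 (edgeR adjusted p = 0.524), and -0.26 without irradiated library 1. miR-150-3p averaged 13.3 CPM in both groups, but with an SD of 6.2 in irradiated and 1.07 in control libraries (n = 4 each). The irradiated libraries measured 17.3, 4.81, 18.5 and 12.7 CPM, and the controls lay between 12.5 and 14.9 CPM. Its log2 fold change of 0.0014 ± 0.40 has no direction: without irradiated library 1 it was -0.16, and the sign turned in several of the other fits.

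Both miR-342 arms had log2 fold changes above 0 at day 180, and their distance from each other rested on 1 irradiated library. miR-342-3p measured 385, 1255, 1693 and 2160 CPM in the irradiated libraries, against 999, 1061, 1007 and 1141 CPM in the controls. Library 1 lay below all controls and the other 3 irradiated libraries lay above them. The log2 fold change was 0.38 ± 0.43 (edgeR adjusted p = 0.664), and 0.68 without irradiated library 1 (adjusted p = 0.0837), with alternatives from 0.0837 to 0.928. Without irradiated library 4 it was 0.084. miR-342-5p measured 295, 72.7, 92.6 and 132 CPM in the irradiated libraries, against 64.3, 62.8, 35.3 and 62.5 CPM in the controls. All 4 irradiated libraries lay above all controls, with library 1 highest by far. Its log2 fold change was 1.40 ± 0.45, a fold of 2.63, with an edgeR adjusted p of 0.251. The exact permutation test gave p = 0.0286, again the smallest possible, which the separation of the groups already fixes.

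Without irradiated library 1 the log2 fold change of miR-342-5p at day 180 was 0.80, with an adjusted p of 0.131. Fitted with all 24 libraries it was 1.38, with an adjusted p of 0.0276, where 32 of 624 miRNAs (5.13%) were called. Over all alternatives the adjusted p ran from 0.0276 to 0.453. The day 180 fit called 0 of 552 miRNAs (0%), while 101 (18.3%) had an unadjusted p under 0.05, with miR-342-5p among them. DESeq2 called 28 of 539 (5.19%) and no member. Of the 552, 30 (5.43%) had every irradiated library above every control, as miR-342-5p did, and 36 (6.52%) had every one below, with no member among them. A log2 fold change below 0 was found for 41.1% of the miRNAs and for 1 of the 4 members. The members' median log2 fold change was 0.19, against 0.13 for all tested.

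The ratio of the arms shows the same library from another side, since both arms of a hairpin come from 1 precursor. For miR-342, the 3p arm exceeded the 5p arm 1.30-fold in irradiated library 1 of day 180, against 17.2-, 18.2- and 16.3-fold in the other 3 irradiated libraries and 15.5-, 16.8-, 28.3- and 18.2-fold in the controls. On the log2 scale the ratio averaged 3.18 ± 1.86 in irradiated and 4.26 ± 0.39 in control lungs (SD, n = 4 each). The difference of -1.08 had an exact permutation p of 0.4, or 0.714 adjusted over the 15 ratio tests, and without library 1 it was -0.15. At day 14 this log2 ratio was 4.16 ± 0.45 in irradiated and 4.41 ± 0.38 in control lungs, and at day 90 it was 4.02 ± 0.28 and 4.21 ± 0.35. The differences of -0.25 and -0.19 had exact permutation p of 0.4 and 0.429.

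For miR-150, the log2 ratio of the 5p to the 3p arm stayed near 10.4 to 10.9 in every group. It averaged 10.4 ± 0.76 in irradiated and 10.5 ± 0.65 in control lungs at day 14 (SD, n = 4 each). At day 90 it averaged 10.9 ± 0.18 in irradiated and 10.5 ± 0.37 in control lungs, a difference of 0.36 with an exact permutation p of 0.171. At day 180 it averaged 10.4 ± 0.80 in irradiated and 10.5 ± 0.20 in control lungs, where irradiated library 2 alone reached 11.6. The day 180 difference was -0.03, or 0.093 without irradiated library 1. None of the 15 ratio tests passed after adjustment.

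**Figure D3:**
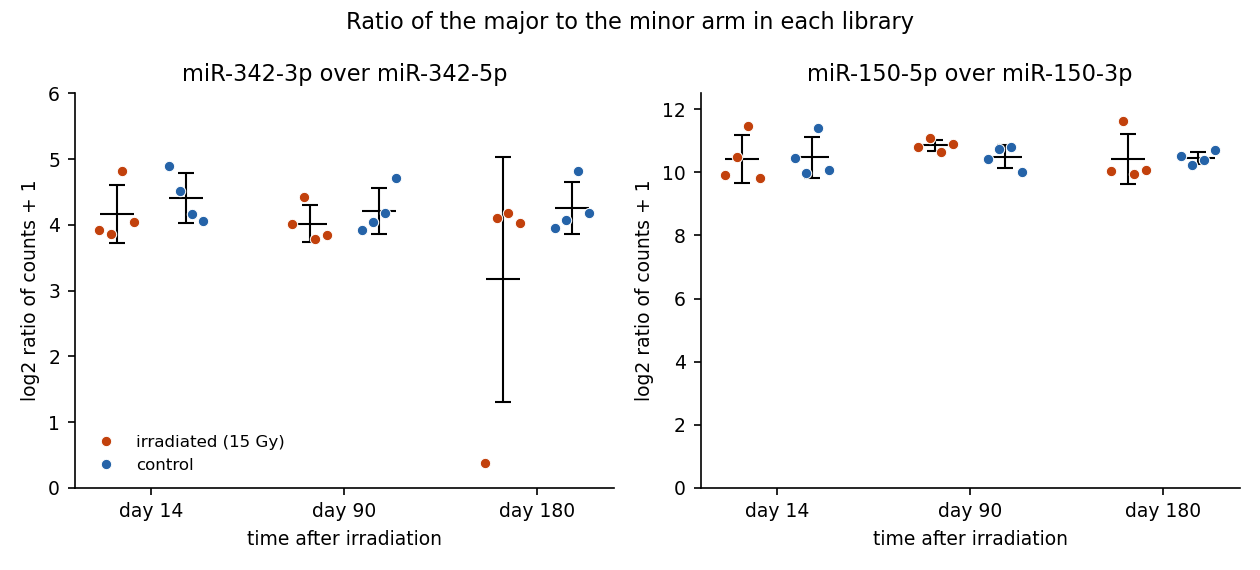
Log2 ratio of counts plus 1 of the 3p to the 5p arm of miR-342 (left) and of the 5p to the 3p arm of miR-150 (right) in every library, by day, irradiated libraries left of controls, with group means ± SD (n = 4). Irradiated library 1 of day 180 has a miR-342 ratio of 0.38, against 3.95 to 4.82 in the other 7 libraries of that day.

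The shifted arm ratio of that library was not particular to miR-342. For every hairpin with both arms tested, a comparison chosen after its values were seen, the 3p to 5p ratio of a library was set against the median of the other 7 libraries of its day. In irradiated library 1 of day 180, 78 of 136 hairpins (57.4%) were more than 2-fold off, and 17 were over 8-fold off. In the other 23 libraries the share was 2.86% to 21.3%. miR-342 deviated by -3.72 on the log2 scale, place 8 of 136 by size, and miR-150 by 0.33, place 113.

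**Figure D4:**
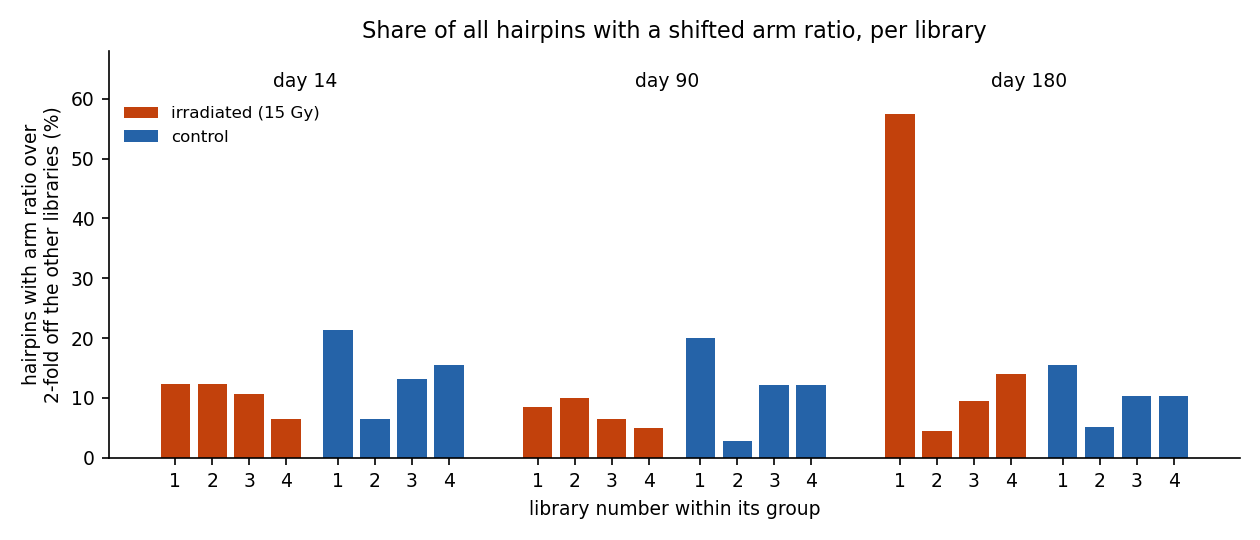
Percent of hairpins whose 3p to 5p ratio lies more than 2-fold from the median of the other libraries of the day, by library, irradiated left of control within a day. Irradiated library 1 of day 180 reaches 57.4% and the other 23 libraries lie between 2.86% and 21.3%.

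The difference of the radiation effect between days was tested in 1 fit over the 1477 miRNAs shared by the 3 tables, of which 624 passed the filter. No difference was called for any miRNA (0%) between any pair of days, and the unadjusted shares were 4.49% for day 90 minus day 14, 11.4% for day 180 minus day 14 and 14.6% for day 180 minus day 90. Comparisons that end in day 180 share its libraries. Irradiated and control libraries of a day share a table, but between days the day and the table cannot be told apart. For miR-342-5p the effect at day 180 exceeded that at day 14 by 1.55 ± 0.49 on the log2 scale (SE; edgeR adjusted p = 0.207) and that at day 90 by 1.73 ± 0.49 (adjusted p = 0.193). For miR-342-3p these differences were 0.76 ± 0.40 (adjusted p = 0.459) and 0.93 ± 0.40 (adjusted p = 0.292). For miR-150-5p they were 0.03 ± 0.23 and 0.42 ± 0.23, and for miR-150-3p 0.10 ± 0.52 and 0.95 ± 0.52, where the lowest edgeR adjusted p was 0.392. From day 14 to day 90 the effects of all 4 members differed by -0.85 to -0.17, each with an adjusted p of 0.996.

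Which miR-342 arm passed in these differences depended on the library left out. Without irradiated library 1 of day 180, miR-342-3p had differences of 1.06 (edgeR adjusted p = 0.0188) from day 14 and 1.23 (adjusted p = 0.00599) from day 90, where 2 of 639 (0.313%) and 10 of 639 (1.56%) miRNAs were called. miR-342-5p then had 0.94 and 1.12, with adjusted p of 0.267 and 0.140, while miR-150-5p had -0.039 and 0.35 and miR-150-3p had -0.065 and 0.79. Without irradiated library 2 of day 180, miR-342-5p had 1.86 (adjusted p = 0.0358) and 2.05 (adjusted p = 0.0376), where 18 of 645 (2.79%) and 5 of 645 (0.775%) were called. Over all alternatives the adjusted p of the differences from day 14 and day 90 ran from 0.0188 to 0.774 and from 0.00599 to 0.544 for miR-342-3p, and from 0.0358 to 0.493 and from 0.0376 to 0.397 for miR-342-5p.

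Other miRNAs of blood cells give a yardstick for the leukocyte content of the lungs. miR-142 is expressed across blood cells, miR-223 mainly in neutrophils and monocytes, and miR-155 rises when lymphocytes and macrophages are activated. miR-142a-3p averaged 1963 ± 576 CPM in irradiated lungs and 1559 ± 543 CPM in controls at day 90 (SD, n = 4 each), a log2 fold change of 0.33 ± 0.30 on the opposite side of 0 from the members. At day 14 it was -0.10 ± 0.30 and at day 180 0.32 ± 0.31. Its other arm, miR-142a-5p, had 0.37 ± 0.31, 0.33 ± 0.30 and -0.00099 ± 0.25 at the 3 days, so the estimates of both arms were closest at day 90. At day 180 miR-142a-3p measured 4429 CPM in irradiated library 1, the library set apart above. The other irradiated libraries measured 1597, 2430 and 2268 CPM, and the controls lay between 1617 and 2435 CPM. miR-223-3p averaged 754 ± 108 CPM in irradiated lungs and 1012 ± 221 CPM in controls at day 14, giving a log2 value of -0.42 ± 0.19 (edgeR adjusted p = 0.883), and had -0.28 ± 0.30 at day 90 and -0.05 ± 0.28 at day 180. Its scarce arm miR-223-5p had -0.10 ± 0.32 and -0.28 ± 0.23 at day 14 and day 90, and 1.07 ± 0.61 at day 180, where 3 of 4 irradiated libraries lay above all controls. None of these leukocyte miRNAs was called by edgeR or DESeq2.

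Among the other lymphocyte-linked miRNAs, 4 of the 5 listed passed the count filter and none was called by edgeR or DESeq2 at any day. Their median log2 fold change was -0.02 at day 14, -0.14 at day 90 and -0.11 at day 180, with 2, 4 and 3 of the 4 below 0. miR-146a-5p, which restrains NF-kappaB signalling, had -0.20 ± 0.11, -0.11 ± 0.11 and -0.13 ± 0.16 at the 3 days. miR-181a-5p, which tunes T cell receptor signalling, had 0.0040 ± 0.11, -0.14 ± 0.10 and -0.09 ± 0.14. miR-155-5p measured 641, 535, 965 and 2015 CPM in irradiated libraries at day 180, against 493, 493, 518 and 315 CPM in controls. All 4 irradiated libraries lay above the controls, as for 5.43% of all miRNAs tested at day 180, miR-342-5p among them. The log2 fold change of miR-155-5p was 1.19 ± 0.42 (edgeR adjusted p = 0.259).

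Set against miR-142a-3p, the abundant arms of both hairpins differed most between the groups at day 90, within the spread of the libraries. The log2 ratio of miR-150-5p to miR-142a-3p was 2.83 ± 0.50 in irradiated and 3.81 ± 0.73 in control lungs (SD, n = 4 each), a difference of -0.97 with an exact permutation p of 0.0857 (0.714 adjusted). That of miR-342-3p to miR-142a-3p was -0.997 ± 0.62 in irradiated and -0.07 ± 0.53 in control lungs, and the difference of -0.93 had an exact permutation p of 0.114. The differences for miR-150-5p were -0.17 at day 14 and -0.42 at day 180, and for miR-342-3p -0.34 and -0.10. Without irradiated library 1, the day 180 difference was -0.20 for miR-150-5p and 0.70 for miR-342-3p. The ratio of miR-150-5p to miR-342-3p differed by 0.17, -0.04 and -0.32 at the 3 days, with exact permutation p of 0.229, 0.886 and 0.657. Its day 180 difference was -0.90 without irradiated library 1.

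**Figure D5:**
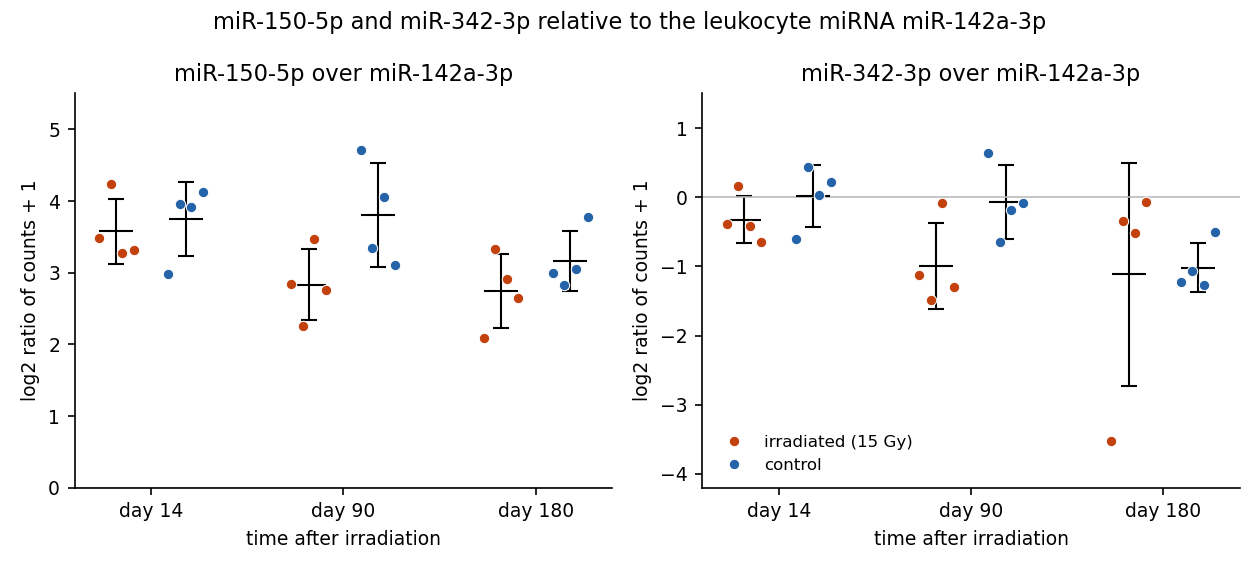
Log2 ratio of counts plus 1 of miR-150-5p (left) and of miR-342-3p (right) to miR-142a-3p in every library, by day, irradiated libraries left of controls, with group means ± SD (n = 4). At day 90 the irradiated means of 2.83 and -0.997 lie below the control means of 3.81 and -0.07, with overlapping libraries.

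The order of the miRNAs most like the members depended on irradiated library 1 of day 180, above all for miR-342-3p. Likeness was Pearson's r of log2 CPM centred within each day, over the 249 miRNAs with a mean of at least 50 CPM, so that the points share libraries and scaling. For miR-150-5p the 5 most alike were miR-146a-5p (r = 0.70), miR-26b-3p (0.60), miR-194-5p (0.57), miR-16-5p (0.52) and miR-181a-5p (0.51). miR-342-3p stood at place 73 of this order, with r = 0.15. Without that library, 3 of these 5 stayed among the first 5, and miR-342-3p stood at place 53 with r = 0.28. For miR-342-3p the 5 most alike were miR-148b-3p (0.82), miR-501-3p (0.81), miR-139-5p (0.80), miR-425-5p (0.79) and miR-322-5p (0.79), and miR-150-5p stood at place 109. Without that library, only miR-501-3p (0.69) stayed among the first 5. The others were then miR-146b-5p (0.78), miR-211-5p (0.75), miR-155-5p (0.65) and miR-342-5p (0.63), with miR-150-5p at place 45. The miR-150 arms had r = 0.47 with each other, with and without that library. The miR-342 arms had r = -0.21, or 0.63 without it.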

How the data were processed

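Small RNA of mouse lung was sequenced in 24 libraries. The authors deposited 1 table per day with a whole-number read count and an RPM value for each mature miRNA and library, per the file headers; the counts are not normalised, judged from their values. The deposited RPM values were used only in an alternative. Bowtie2 (no version) and the build GRCm38.p6 are named, with no role, in the submitters' processing notes. The use of molecular identifiers is not given in the sources read here.

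Tests were run per day in R 4.3.3 with edgeR 4.0.16: filterByExpr, TMM scaling, the quasi-likelihood F-test and Benjamini-Hochberg adjustment at 0.05 over all 499, 558 and 552 miRNAs tested. SE values are the absolute log2 fold change divided by the square root of F. Differences between days came from 1 fit of the 6 groups on shared miRNAs. Ratios used log2((count A + 1)/(count B + 1)) with exact two-sided permutation tests, adjusted over 15. The scripts were tested on simulated data. Named were the 4 members, the leukocyte references miR-142a-3p and miR-223-3p, the lymphocyte-linked miR-155-5p, miR-146a-5p and miR-181a-5p, any list miRNA that edgeR called (none was), and the 5 miRNAs most alike by r. The members and lists were chosen with earlier results of these data known. Alternatives were DESeq2 1.42.0, limma 3.58.1 (voom), other scalings and filters, a replicate block and each library left out. Added after seeing the data were the exact test within pairs at day 14, and likeness and levels without irradiated library 1 of day 180. The list miRNAs that DESeq2 called, miR-142a-5p, miR-141-3p, miR-223-5p, miR-199a-3p, miR-126a-3p, miR-486a-5p and miR-486b-5p were named after their values were seen.

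At day 14 same-numbered irradiated and control libraries deviated together from their group means (r = 0.408, 0.172, 0.465 and 0.411). Irradiated library 2 correlated more with control library 4 than with control library 2. The numbers thus pair the libraries there only in part, by the data and not by the labels. Between the most similar libraries of each day, chi-square per degree of freedom was 69.7, 62.3 and 50.2, and none was taken for a copy. No other miRNA had counts identical to a member's.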

Additional observations from a re-analysis of the deposited data

Results flagged for a closer look

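Within each group of 4 libraries, the members, the leukocyte miRNAs and their ratios were screened for a lowest or highest library whose gap to the nearest other over the group's range exceeded Dixon's 95% critical value. This marked 5 of 84 groups, all 5 of them at day 180, and chance marks about 1 in 20. The ratios reuse the screened miRNAs, so the 84 groups are not independent. miR-342-5p was 35.3 CPM in control library 3 of day 180, against 62.5 to 64.3 CPM in the other 3 controls. miR-155-5p was 315 CPM in control library 4 of day 180, against 493 to 518 CPM in the others. The log2 ratio of miR-150-5p to miR-150-3p was 11.6 in irradiated library 2 of day 180, against 9.94 to 10.1 in the others. In irradiated library 1 of day 180, the log2 ratio of miR-342-3p to miR-342-5p was 0.38, against 4.03 to 4.19, and that of miR-342-3p to miR-142a-3p was -3.52, against -0.52 to -0.07.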

How the results depend on the processing

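Of 192 alternative fold changes of the members, 177 kept direction and side of the threshold, 10 turned sign and 5 passed. At day 90 these were miR-150-5p with no count filter (-0.64), miR-150-3p (-0.99) and miR-342-3p (-0.60) in DESeq2, miR-150-5p without control library 4 (-0.80), and at day 180 miR-342-5p with all 24 libraries (1.38). For miR-150-3p at day 180 the sign turned with no filter (-0.11), voom (-0.17), all 24 libraries (-0.017) and the replicate block (-0.13). With 1 library left out, log2 fold changes ran from -0.37 to 0.14 for miR-150-3p at day 14, from -0.80 to -0.53 for miR-150-5p at day 90 and from -0.20 to 0.27 for miR-150-3p at day 180.

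Calls over all miRNAs at day 14 were 0, and 7 with no filter, 1 in DESeq2 and 1 with all 24 libraries. At day 90 they were 2, and 18 with no filter, 0 above 10 CPM, 19 in DESeq2 and 0 with all 24 libraries; at day 180 they were 0, and 18, 28 and 32 with no filter, in DESeq2 and with all 24 libraries. Leaving out 1 library gave 0 to 1, 0 to 7 and 0 to 5 calls at the 3 days. The replicate block left 0 calls at day 90 and changed no call of a member; at day 90 and day 180 the numbers did not pair the libraries (r from -0.224 to 0.355 and from -0.356 to -0.0934).

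Differences between days kept direction and side in 218 of 228 alternatives, with 6 sign turns and 4 that passed. Leaving out 1 library gave 0 to 18 calls for day 180 minus day 14 and 0 to 10 for day 180 minus day 90. With 1 library left out, the members' values for day 180 minus day 14 ran from -0.041 to 0.19 (miR-150-5p), from -0.11 to 0.46 (miR-150-3p), from 0.50 to 1.06 (miR-342-3p) and from 0.94 to 1.86 (miR-342-5p). For day 180 minus day 90, again with 1 library left out, they ran from 0.73 to 1.23 (miR-342-3p) and from 1.12 to 2.05 (miR-342-5p). Of 165 alternative ratios, 13 turned sign. Ranges with 1 library left out were -0.40 to 0.26 (miR-150 arms, day 14), -0.43 to 0.13 (miR-150 arms, day 180), -0.27 to 0.079 and -0.90 to 0.063 (miR-150-5p to miR-342-3p, day 90 and day 180) and -0.45 to 0.70 (miR-342-3p to miR-142a-3p, day 180). The cause of these changes was not tested. miR-150-3p, with 14 to 73 counts per library, is limited by depth.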
